A study of Mus musculus with 9 samples.

Results

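The GADD45 family was examined in mouse embryonic stem (ES) cells deprived of a single amino acid. The family was chosen by the strong response of Gadd45g to Thr starvation, that is by its Thr-starved values relative to its unstarved ones, and Gadd45a and Gadd45b were included by name. Its 3 genes were all present among the 20189 genes of the count table, and all 3 were among the 20143 genes tested. The Thr-starved values of Gadd45g are therefore described without a test, while Gadd45a and Gadd45b were tested in all 3 comparisons. Gadd45g was tested in Cys-starved against unstarved cells, and since its unstarved values were part of the choice, that test is not independent of it. The members were also chosen with earlier results of these data known, so the tests of Gadd45a and Gadd45b may not be independent of the choice.

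The cells were E14, a pluripotent wild-type ES cell line grown without feeder cells on gelatin with serum and leukemia inhibitory factor. Thr or Cys was withheld for 3 h. The labels describe starvation medium with dialyzed serum and β-mercaptoethanol, and a control medium with every amino acid present, but name only Arg and Leu as withheld, so that the medium of the Thr-starved and Cys-starved cells was the same is not stated outright. Each of the 3 groups had 3 libraries of poly(A) RNA, sequenced deeply, at 48763102 to 74962733 counts per library. The column names of the unstarved libraries carry an extra tag that those of the starved libraries lack, and its meaning is not stated. Any difference that goes with the tag cannot be told apart from starvation. Nothing in the labels says that the libraries of a group came from separate cultures, so the p-values measure only the spread between these libraries, which may be technical. The common coefficient of variation across the libraries was 3.53%. All 10 pluripotency markers were present, with a summed level of 4100 to 4410 CPM (counts scaled to the TMM-adjusted library size) over the 9 libraries. Markers of fibroblast feeder cells summed to 9.5 to 15 CPM for the 5 of 7 with a row in the table.

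The GADD45 proteins (growth arrest and DNA damage inducible) are small acidic proteins without known enzymatic activity that act by binding others. They bind the kinase MEKK4 and activate the p38 and JNK branches of stress signaling, they bind PCNA, p21 and the CDK1-cyclin B complex, and they take part in active DNA demethylation with repair enzymes. Their transcripts are short-lived, and each gene is induced by its own set of stresses and differentiation signals. Gadd45a is a target of p53, Gadd45b is known for its induction by TGF-β and NF-κB signaling, and Gadd45g is known for its induction by cytokines and for its roles in development and neurogenesis.

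In the GENCODE M21 annotation on the GRCm38 build, the members lie on separate chromosomes. Gadd45a (ENSMUSG00000036390) is at chr6:67035096-67037457 on the minus strand, with 1764 bp of exon sequence over 7 annotated transcripts. Gadd45b (ENSMUSG00000015312) is at chr10:80930073-80932204 on the plus strand, with 1589 bp over 3 transcripts. Gadd45g (ENSMUSG00000021453) is at chr13:51846678-51848468 on the plus strand, with 1173 bp over 2 transcripts. All 3 are protein coding, and the counts are sums over the exons of each gene. Gadd45b and Gadd45g overlap no other annotated gene. Gadd45a is overlapped on the opposite strand by the noncoding gene E230016M11Rik, and the strand setting of the counting is not given in the sources used here.

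The sequence upstream of each start is shown because Gadd45a and Gadd45b were higher in Thr-starved cells. Gadd45g was higher there too, but those values chose the family, so nothing is read from a joint rise. Each run comes from the RefSeq promoter table (GRCm38.p6), is written 5′ to 3′ on the strand of the gene, and ends before the most upstream annotated start. They cover chr6:67037458-67037657 on the minus strand for Gadd45a, chr10:80929841-80930072 on the plus strand for Gadd45b and chr13:51846425-51846674 on the plus strand for Gadd45g. Capitals mark the matches to the motifs searched.
Gadd45a: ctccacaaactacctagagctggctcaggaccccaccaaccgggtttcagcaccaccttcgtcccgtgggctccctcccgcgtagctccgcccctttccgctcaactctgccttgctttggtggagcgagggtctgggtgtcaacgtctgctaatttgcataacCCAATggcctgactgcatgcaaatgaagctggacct
Gadd45b: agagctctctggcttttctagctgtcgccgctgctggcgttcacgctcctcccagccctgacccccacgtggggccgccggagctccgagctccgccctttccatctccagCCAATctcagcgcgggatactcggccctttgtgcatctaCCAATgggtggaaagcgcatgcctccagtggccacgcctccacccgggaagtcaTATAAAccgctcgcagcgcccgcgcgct
Gadd45g: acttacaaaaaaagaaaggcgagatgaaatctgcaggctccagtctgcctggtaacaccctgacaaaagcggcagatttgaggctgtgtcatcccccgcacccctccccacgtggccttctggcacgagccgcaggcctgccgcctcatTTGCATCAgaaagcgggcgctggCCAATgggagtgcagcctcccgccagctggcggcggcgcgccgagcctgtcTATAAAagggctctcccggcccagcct

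The motifs searched on both strands were CCAAT (the CCAAT box), TATAAA (the TATA box), the AP-1 letters TGANTCA, the CRE letters TGACGTCA, and TGATGNAA, a core shared by elements bound by ATF4 and C/EBP factors. Positions are counted backwards from the RefSeq start, with the base before it at -1. Gadd45a held CCAAT at -86 to -82. Gadd45b held CCAAT at -139 to -135 and at -100 to -96, and TATAAA at -46 to -41. Gadd45g held CCAAT at -78 to -74 and TATAAA at -27 to -22. On the minus strand of Gadd45g, TGATGNAA matched at -101 to -94, where the printed strand reads TTGCATCA. None of the marked matches overlap, and TGANTCA and TGACGTCA had no match in these windows of 300 bases. Among 32851 RefSeq promoter windows of that length, CCAAT was present in 37.4%, TATAAA in 13.6%, TGANTCA in 7.81%, TGATGNAA in 3.97% and TGACGTCA in 1.79%. GC content of the printed sequence was 58.5% for Gadd45a, 65.1% for Gadd45b and 62.0% for Gadd45g.

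Starvation of Thr was accompanied by higher levels of all 3 members, by 3.67-fold for Gadd45a, 2.98-fold for Gadd45b and 13.9-fold for Gadd45g. In this comparison 63% of all tested genes were called at an adjusted p of 0.05 or less, 31.1% as higher and 31.9% as lower, so a call on its own is common here. The libraries of the compared groups did not overlap for Gadd45a and Gadd45b, nor for 66.5% of all genes. They did not overlap for Gadd45g either, which the choice of the family fixed, and nothing is read from it. In bulk RNA, a change in the number of cells that carry a transcript and a change of the RNA per cell cannot be told apart.

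Gadd45a, the DNA damage responsive member, had 3053, 3272 and 2922 counts in the unstarved libraries and 9535, 9169 and 14377 counts in the Thr-starved libraries. Scaled by TMM library size, these were 50.5, 54.1 and 54.2 CPM in unstarved cells and 195, 192 and 196 CPM in Thr-starved cells. The high count of Thr-starved replicate 3 belongs to the deepest library, and the scaled values of the 3 starved libraries lie within 4 CPM of each other. The level rose from 52.9 ± 2.12 to 194 ± 1.89 CPM (SD, n = 3 each), and the fitted log2 fold change was 1.88 (SE 0.0302, 95% interval 1.81 to 1.94, edgeR adjusted p = 1.1e-22). By size of increase Gadd45a ranked 220 among the 20143 genes.

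Gadd45b, the member tied to TGF-β and NF-κB signaling, was at 6.003, 5.39 and 5.64 CPM in unstarved cells and at 17.9, 17.4 and 15.7 CPM in Thr-starved cells. The lowest starved library was above 2 times the highest unstarved one. These levels rest on 304 to 363 counts per unstarved library and 830 to 1154 counts per Thr-starved library. The mean rose from 5.68 ± 0.307 to 17.0 ± 1.12 CPM (SD, n = 3 each), or 1.58 on the log2 scale (SE 0.0912, 95% interval 1.39 to 1.77, edgeR adjusted p = 6.2e-13), at rank 410.

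Gadd45g, the developmental and cytokine-induced member, had 56, 86 and 56 counts in the unstarved libraries, or 0.926, 1.42 and 1.04 CPM. In the Thr-starved libraries it had 730, 738 and 1238 counts, or 14.9, 15.5 and 16.9 CPM. All starved libraries were more than 10 times above every unstarved one. The means were 1.13 ± 0.26 and 15.7 ± 1.02 CPM (SD, n = 3 each), with a fitted log2 fold change of 3.799 (SE 0.114, 95% interval 3.56 to 4.04) and rank 11. These are the values that chose the family, so no test is given for them and nothing is read from the interval or the rank. The lowest and highest log2 fold change with 1 library left out were 3.67 and 4.01.

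**Figure D1:**
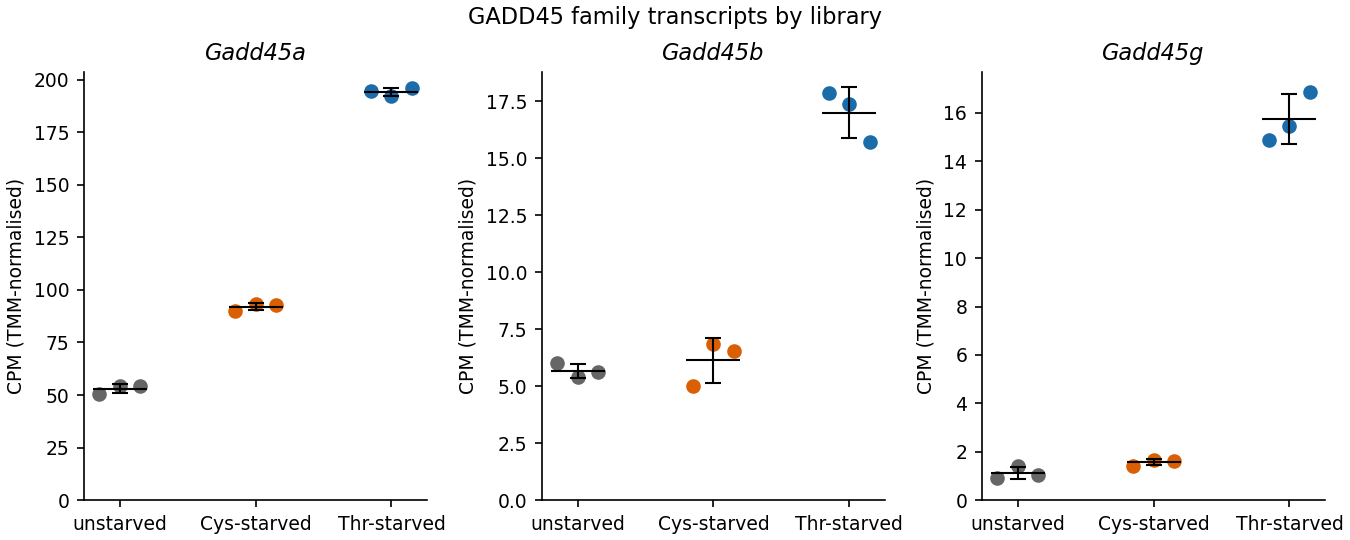
TMM-normalised CPM of each member (y axis, a separate scale per panel, starting at 0) in the 3 unstarved, 3 Cys-starved and 3 Thr-starved libraries. Points are libraries, the horizontal mark is the group mean and the bar its SD. The Thr-starved libraries lie above all others for each member, and those of Gadd45g hold the values that chose the family. For Gadd45b the Cys-starved and unstarved libraries overlap.

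Starvation of Cys for the same time gave smaller changes. Gadd45a rose 1.74-fold, Gadd45g was 1.38-fold higher than in the unstarved libraries, whose values were part of the choice of the family, and Gadd45b, at 1.08-fold, did not pass the test. Of all genes tested, 36.3% were called in this comparison, 17.5% as higher and 18.8% as lower, and the libraries of the groups did not overlap for 46.4%. Both starvations were compared with the same unstarved libraries, so their fold changes share that part of the error.

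Gadd45a had 5672, 6028 and 5526 counts in the Cys-starved libraries, or 90.02, 93.2 and 92.7 CPM, all above the highest unstarved library. Its mean of 92.0 ± 1.69 CPM (SD, n = 3) gave a log2 fold change of 0.80 (SE 0.0304, 95% interval 0.73 to 0.86, edgeR adjusted p = 5.4e-15) at rank 733. The gene was called in each of the 17 alternative fits.

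Gadd45b was at 5, 6.86 and 6.54 CPM in the Cys-starved libraries, from 315, 444 and 390 counts. The first of these libraries lay below every unstarved one and the other two lay above all of them. The mean was 6.13 ± 0.996 CPM (SD, n = 3), and the fitted log2 change was 0.11 (SE 0.0997, edgeR adjusted p = 0.43). The 95% interval of the difference, -0.10 to 0.32, reaches from a slight decrease to 0.32 on the log2 scale, and does not show that the level stayed the same. Without the first Cys-starved library the log2 fold change was 0.24 and passed the test (adjusted p = 0.044), while the other 16 alternatives gave an adjusted p of up to 0.92.

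Gadd45g was at 1.43, 1.65 and 1.61 CPM in the Cys-starved libraries, from 90, 107 and 96 counts. The groups did not overlap, but the lowest Cys-starved library (1.428 CPM) and the highest unstarved library (1.423 CPM) were nearly level. The mean was 1.56 ± 0.119 CPM (SD, n = 3), and the fitted log2 change was 0.47 (SE 0.154, 95% interval 0.15 to 0.79, edgeR adjusted p = 0.02) at rank 1963. This p rests on the same unstarved values as the choice of the family and is not independent support for a rise. The call did not hold in 5 of the 17 alternative fits. It was lost without unstarved replicate 1 (log2 fold change 0.33, adjusted p = 0.13) or 3 (0.41, adjusted p = 0.075), without Cys-starved replicate 2 (0.42, adjusted p = 0.072) or 3 (0.45, adjusted p = 0.053), and with counts halved (0.47, adjusted p = 0.052). Without unstarved replicate 2, the highest of its group, the log2 fold change was 0.67 (adjusted p = 0.0025).

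**Figure D2:**
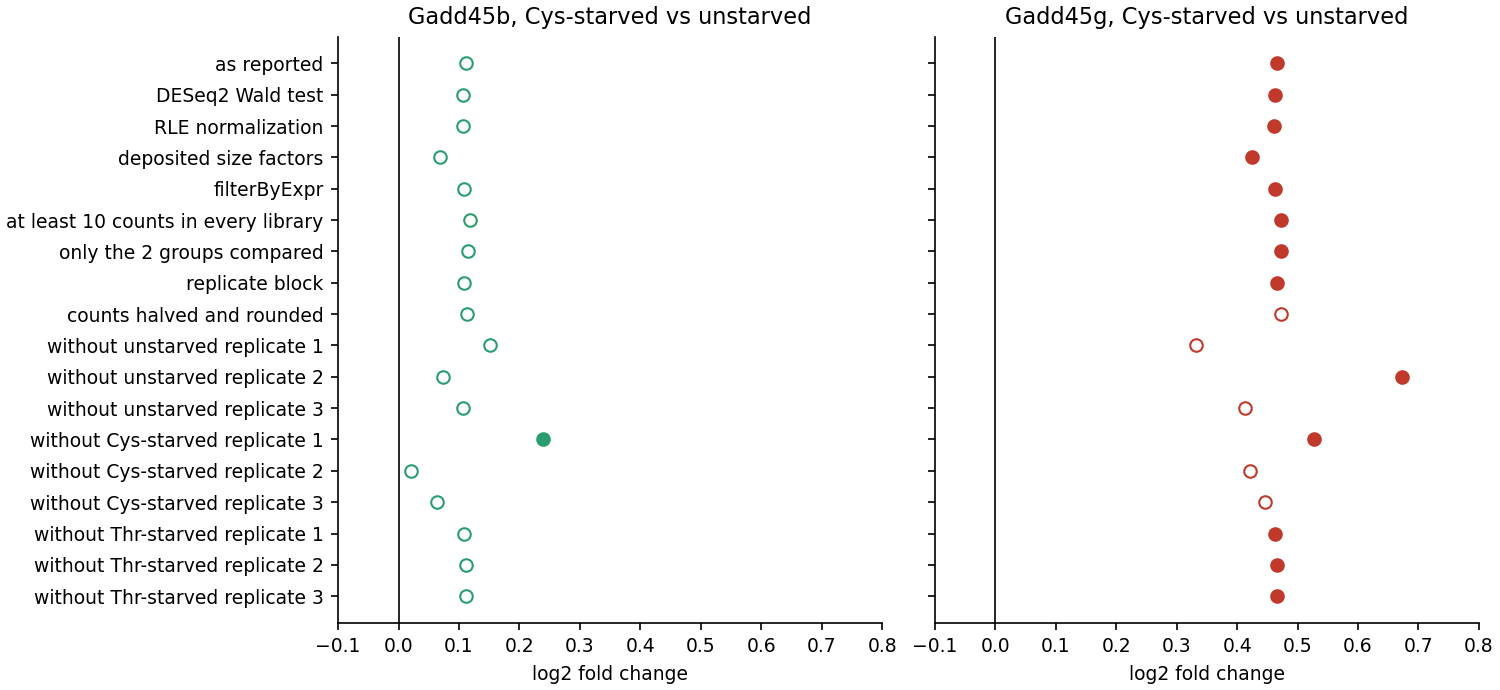
Log2 fold change (x axis) of Gadd45b and Gadd45g in Cys-starved against unstarved cells, as reported and under 17 alternative fits (y axis). Filled points have an adjusted p of 0.05 or less and open points do not. Gadd45b passes in 1 alternative, and Gadd45g fails in 5, of which 4 leave out a library.

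The starvations were also set directly against each other, with a test for Gadd45a and Gadd45b. Whether a difference comes from the amino acid removed was not tested, since a shared medium is not stated outright. Thr-starved cells had higher levels of all 3 members than Cys-starved cells, by 2.11-fold for Gadd45a, 2.76-fold for Gadd45b and 10.1-fold for Gadd45g. Here 62% of the genes tested were called, 30.4% as higher and 31.6% as lower in Thr-starved cells, and libraries did not overlap for 65.8%. The log2 difference was 1.08 for Gadd45a (SE 0.0289, 95% interval 1.02 to 1.14, edgeR adjusted p = 1.1e-18) and 1.47 for Gadd45b (SE 0.0894, 95% interval 1.28 to 1.65, edgeR adjusted p = 1.9e-12). Every Thr-starved library was above every Cys-starved one for both genes. For Gadd45g the fitted log2 difference was 3.33 (SE 0.107, 95% interval 3.11 to 3.56). It holds the same Thr-starved values that chose the family, so it is not tested and nothing is read from its interval.

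**Figure D3:**
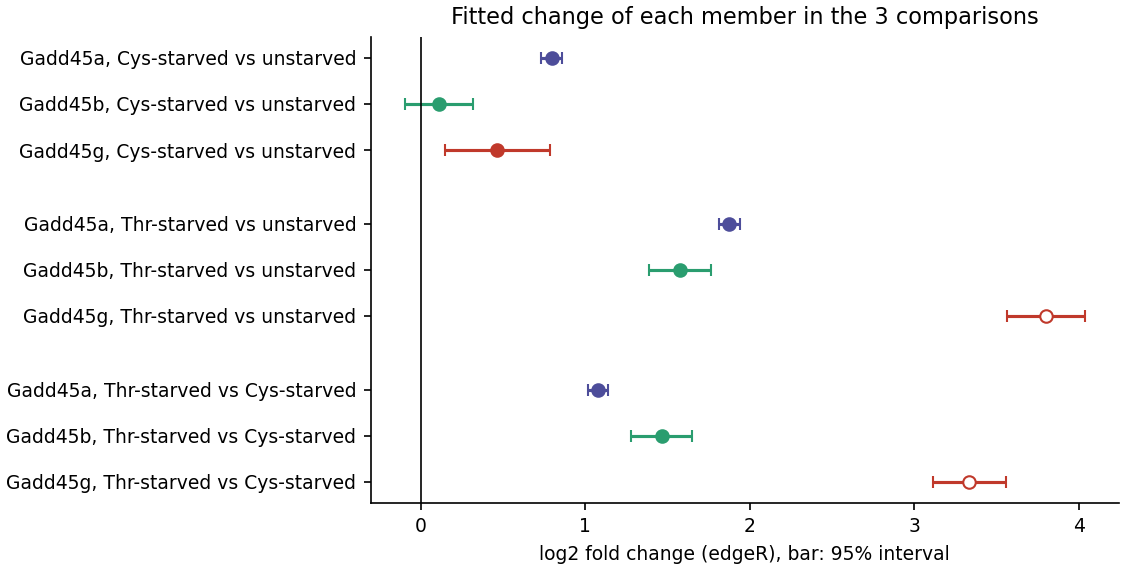
Fitted log2 fold change (x axis) of each member in the 3 comparisons (y axis), with the 95% interval as the bar. Open points are the Gadd45g values that are described without a test. Among the tested values, drawn filled, the interval of Gadd45b in Cys-starved against unstarved cells, -0.10 to 0.32, is the only one that includes 0.

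The noncoding gene E230016M11Rik, which overlaps the 5′ part of Gadd45a on the opposite strand, was also higher in both starvations. It had 15, 20 and 18 counts in unstarved, 35, 26 and 43 in Cys-starved and 29, 36 and 33 in Thr-starved libraries. These counts are below 1% of those of Gadd45a in every library. Its log2 fold change was 0.87 with Cys (SE 0.328, edgeR adjusted p = 0.041) and 0.95 with Thr starvation (SE 0.33, edgeR adjusted p = 0.016). Between the starvations, where Gadd45a differed 2.11-fold, its log2 difference was 0.08 (SE 0.302, edgeR adjusted p = 0.84). Its transcript shares 317 bp of identical sequence with Gadd45a, read on the opposite strand. No other stretch of at least 43 bp at 90% identity or more was found for a transcript of Gadd45a, and none for Gadd45b or Gadd45g.

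Levels of different members are comparable only per length. On the scale of CPM per kilobase of exon, the order in unstarved cells was Gadd45a at 30.0 ± 1.2, Gadd45b at 3.57 ± 0.193 and Gadd45g at 0.963 ± 0.222 (SD, n = 3 each). The order was the same in Cys-starved cells, at 52.1 ± 0.958, 3.86 ± 0.627 and 1.33 ± 0.102. The libraries of the 3 genes did not overlap in either group. In Thr-starved cells Gadd45a was at 110 ± 1.07, Gadd45g at 13.4 ± 0.868 and Gadd45b at 10.7 ± 0.704, so that Gadd45g stood above Gadd45b, with 12.7 to 14.4 against 9.9 to 11.2 over the libraries. When the longest transcript was used as the length, this gap closed to 13.9 to 15.8 for Gadd45g against 12.3 to 13.9 for Gadd45b, and in the first Thr-starved library the genes were level at 13.91. The Thr-starved values of Gadd45g chose the family, so nothing is read from its place above Gadd45b.

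Gadd45a made up most of the family in every group. Its share of the family sum per length was 86.9% ± 0.58 in unstarved, 91.0% ± 1.02 in Cys-starved and 82.0% ± 0.154 in Thr-starved cells (SD, n = 3 each). The share of Gadd45g was 2.78% ± 0.575, 2.32% ± 0.111 and 10.0% ± 0.588 in the same order, and that of Gadd45b was 10.4% ± 0.914, 6.72% ± 0.909 and 7.97% ± 0.574. The family sum itself was 34.5 ± 1.18 CPM per kilobase in unstarved, 57.3 ± 1.69 in Cys-starved and 134 ± 1.13 in Thr-starved cells. Gadd45a thus contributed most of the additional family transcript in both starvations. The Thr-starved sum and shares hold the Gadd45g values that chose the family, and nothing is read from the share of Gadd45g there.

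**Figure D4:**
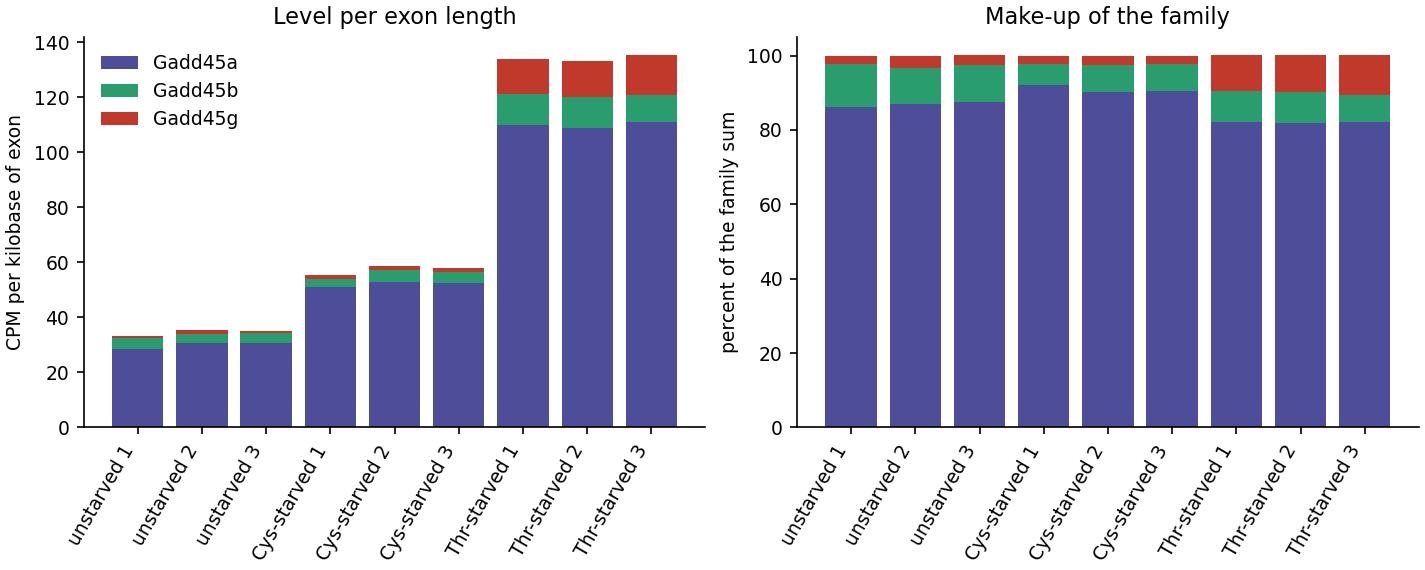
Level per kilobase of exon (left, CPM per kilobase) and percent of the family sum (right) of Gadd45a, Gadd45b and Gadd45g, stacked, in each of the 9 libraries (x axis). The sum is near 34.5 in unstarved, 57.3 in Cys-starved and 134 in Thr-starved libraries. The Gadd45g part of the Thr-starved libraries holds the values that chose the family, and nothing is read from its width.

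The proportions of the members are given here for single libraries, without a test. For every 100 counts of Gadd45a there were 1.83, 2.63 and 1.92 counts of Gadd45g in the unstarved, 1.59, 1.78 and 1.74 in the Cys-starved and 7.66, 8.05 and 8.61 in the Thr-starved libraries. The high Thr-starved ratios hold the Gadd45g values that chose the family, and nothing is read from them. For Gadd45b the ratios were 11.9, 9.96 and 10.4 in unstarved, 5.55, 7.37 and 7.06 in Cys-starved and 9.18, 9.05 and 8.03 in Thr-starved libraries. Relative to Gadd45a, Gadd45b was thus lowest in Cys-starved libraries, a description without a test.

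Genes whose products regulate the members were examined next. This list and those that follow were chosen with earlier results of these data known, so their counts and p-values are not independent support. Of 17 regulators tested, 11 rose and 5 fell in Thr-starved cells, with a median log2 fold change of 0.39 against -0.02 over all genes, of which 31.1% rose and 31.9% fell. The list was not split into activators and repressors, so these counts have no common direction for the members. Jun, an AP-1 subunit, rose from 6.02 ± 0.663 to 45.1 ± 0.892 CPM (log2 fold change 2.91, SE 0.0606, edgeR adjusted p = 9.7e-21). Stat3, which carries cytokine and leukemia inhibitory factor signals, rose by a log2 fold change of 1.38 (SE 0.0287, edgeR adjusted p = 9.7e-21). Smad3, a transducer of TGF-β signals, fell from 17.8 ± 0.379 to 5.39 ± 0.0756 CPM (log2 fold change -1.72, SE 0.0609, edgeR adjusted p = 1e-16), in the libraries in which Gadd45b was highest. The NF-κB subunit genes Nfkb1 (-0.50, edgeR adjusted p = 7.8e-11) and Rela (-0.30, edgeR adjusted p = 7.4e-06) fell there as well, while Smad4, the partner of Smad3, was slightly higher, with overlapping libraries (0.08, edgeR adjusted p = 0.04). These 3 were added after their values were seen. So were Foxo3 (1.00, edgeR adjusted p = 3.5e-18), Trp53 (0.41, edgeR adjusted p = 1.2e-13) and Brca1 (0.40, edgeR adjusted p = 3.5e-11), which rose with Thr starvation. Myc, added in the same way, fell (-1.34, edgeR adjusted p = 8.8e-19). Whether Smad3 or the NF-κB subunit genes had a part in the level of Gadd45b was not tested. In Cys-starved cells 8 of the 17 rose and 3 fell, with a median of 0.10 against 0.01 over all genes, of which 17.5% rose and 18.8% fell. Rela rose there from 26.6 ± 0.38 to 33.6 ± 0.888 CPM (log2 fold change 0.34, edgeR adjusted p = 3.6e-06). Jun rose there too, to 11.4 ± 0.393 CPM (log2 fold change 0.92, edgeR adjusted p = 4.5e-10), and Atf4, the transcription factor of the amino acid response, rose from 354 ± 5.21 to 454 ± 7.41 CPM (log2 fold change 0.36, edgeR adjusted p = 7.9e-12). Atf4 rose with Thr starvation as well, to 589 ± 8.07 CPM (log2 fold change 0.74, edgeR adjusted p = 2.1e-18), a value added after it was seen, and Thr-starved cells were above Cys-starved ones by 0.37 (edgeR adjusted p = 3.2e-13).

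Of the 11 tested kinase genes from MEKK4 to p38 and JNK, through which GADD45 proteins signal, 7 fell and 2 rose in Thr-starved cells, with a median log2 fold change of -0.13, beside 31.9% of all genes lower and 31.1% higher. Mapk11, the p38β kinase, fell from 9.87 ± 0.706 to 4.7 ± 0.257 CPM (log2 fold change -1.06, edgeR adjusted p = 5.3e-11), Map2k6, which activates p38, from 9.52 ± 0.624 to 4.79 ± 0.43 CPM (-0.99, edgeR adjusted p = 3.8e-10) and Mapk12, the p38γ kinase, from 6.43 ± 0.392 to 4.48 ± 0.242 CPM (-0.52, edgeR adjusted p = 1.2e-05). These are low-level genes, and the others given here for Thr starvation were added after their values were seen. Map3k4, which encodes MEKK4 itself, fell from 65.9 ± 3.6 to 46.9 ± 1.02 CPM (-0.49, edgeR adjusted p = 2.5e-10). Mapk14, the p38α kinase, was at 117 ± 1 CPM in unstarved and 121 ± 1.51 CPM in Thr-starved cells (0.05, edgeR adjusted p = 0.12). The genes that rose were Map2k7 (0.27, edgeR adjusted p = 1.2e-05) and Map2k4 (0.13, edgeR adjusted p = 0.0015), which encode activators of JNK. In Cys-starved cells 3 of the 11 were called, all higher, with a median of 0.05, a smaller share than the 36.3% called over all genes. These were Map2k6 (log2 fold change 0.19, edgeR adjusted p = 0.049), Mapk8, or JNK1 (0.14, edgeR adjusted p = 0.019), and Mapk9, or JNK2 (0.10, edgeR adjusted p = 0.042), and with the deposited size factors none of the 11 was called.

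Among the partners in cell cycle arrest and repair, Cdkn1a and Cdk1 moved in opposite directions in the starvations. Cdkn1a, which encodes the CDK inhibitor p21, rose from 35.8 ± 1.4 to 114 ± 0.953 CPM with Thr (log2 fold change 1.66, edgeR adjusted p = 7.3e-21) and fell to 30.4 ± 0.871 CPM with Cys starvation (-0.24, edgeR adjusted p = 1.6e-05). Cdk1, the mitotic kinase that GADD45 proteins inhibit, rose by 0.24 with Thr (edgeR adjusted p = 2.4e-08) and had a log2 fold change of -0.17 with Cys starvation (edgeR adjusted p = 1.3e-05). Set directly against each other, Thr-starved cells had more of both, by 1.90 for Cdkn1a (edgeR adjusted p = 1.5e-21) and 0.40 for Cdk1 (edgeR adjusted p = 2.8e-12) on the log2 scale. Of the 5 listed partners, 3 rose and 1 fell with Thr starvation, and none rose and 4 fell with Cys starvation, with medians of 0.15 and -0.17, beside 63% and 36.3% of all genes called. Pcna fell from 419 ± 6.38 to 369 ± 5.78 CPM with Cys starvation (log2 fold change -0.18, edgeR adjusted p = 3.9e-07). With Thr starvation its log2 fold change was -0.02 (edgeR adjusted p = 0.5). Cdkn1a overlaps another annotated gene, whose reads could enter its count.

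Among 9 partners in DNA demethylation, 5 rose and 2 fell in Thr-starved cells and 4 rose and 2 fell in Cys-starved cells, with medians of 0.15 and 0.10. Over all genes 63% were called with Thr and 36.3% with Cys starvation, so these counts say little about the partners as a group. Ercc5, which encodes the repair endonuclease XPG, rose from 21.8 ± 1.24 to 40.1 ± 2.08 CPM with Thr (log2 fold change 0.88, edgeR adjusted p = 8.3e-13) and to 26.4 ± 1.48 CPM with Cys starvation (0.28, edgeR adjusted p = 0.00019). Tet1, a dioxygenase that oxidises methylcytosine, rose with Thr starvation by a log2 fold change of 0.41 (edgeR adjusted p = 2.2e-06). Ing1, a chromatin reader that recruits Gadd45a, fell from 114 ± 3.08 to 90.8 ± 0.27 CPM (-0.32, edgeR adjusted p = 4.1e-10). Mbd4, a DNA glycosylase, rose with Cys starvation by 0.34 (edgeR adjusted p = 3.7e-07). Ercc4 rose by 0.24 with Cys (edgeR adjusted p = 0.00064) and by 0.20 with Thr starvation (edgeR adjusted p = 0.0012).

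The other genes first named for growth arrest and DNA damage are Ddit3 (GADD153, the transcription factor CHOP) and Ppp1r15a (GADD34, a phosphatase subunit that reverses eIF2α phosphorylation). Ddit3 was at 15.5 ± 1 CPM in unstarved, 18.4 ± 0.241 in Cys-starved and 85.1 ± 2.24 in Thr-starved cells. Its log2 fold change was 0.24 with Cys (edgeR adjusted p = 0.0003) and 2.46 with Thr starvation (edgeR adjusted p = 5.3e-22). Ppp1r15a was at 48.5 ± 1.46, 88.7 ± 4.92 and 95 ± 1.2 CPM in the same order, rising by 0.87 with Cys (edgeR adjusted p = 2.8e-14) and 0.97 with Thr starvation (edgeR adjusted p = 3.1e-16). Between the starvations, Ddit3 differed by 2.21 (edgeR adjusted p = 3.8e-21) and Ppp1r15a by 0.10 (edgeR adjusted p = 0.018) on the log2 scale. Ddit3 also overlaps another annotated gene.

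Gadd45a is itself a p53 target, and 24 other targets of p53 were examined beside it. With Thr starvation 19 rose and 4 fell, with a median log2 fold change of 0.97 against -0.02 over all genes, of which 31.1% rose. Plk2, a stress-induced kinase, rose from 28.3 ± 1.23 to 102 ± 0.833 CPM (log2 fold change 1.84, edgeR adjusted p = 2.6e-21) and Mdm2, the ubiquitin ligase of p53, from 98.7 ± 3.16 to 262 ± 2.81 CPM (1.41, edgeR adjusted p = 1.6e-21). With Cys starvation 5 rose and 12 fell, with a median of -0.10, beside 17.5% and 18.8% of all genes. Gadd45a rose there, as did Sesn2, a leucine sensor and stress gene (171 ± 3.83 to 248 ± 1.39 CPM, log2 fold change 0.54, edgeR adjusted p = 2.6e-14), and Rrm2b, a ribonucleotide reductase subunit (0.51, edgeR adjusted p = 3.1e-05), while Perp, a membrane protein gene, had a log2 fold change of -0.41 (edgeR adjusted p = 5.5e-08).

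In Thr-starved against Cys-starved cells, 19 of the 24 p53 targets were higher and 2 lower (median 0.82), and among regulators 11 were higher and 5 lower (median 0.32). Among the kinases 2 were higher and 7 lower (median -0.26), among cell cycle and repair partners 4 were higher and none lower (median 0.18), and among demethylation partners 3 were higher and 3 lower (median -0.03). Over all genes the median was -0.02, with 30.4% higher and 31.6% lower. Jun was higher by 1.99 (edgeR adjusted p = 1.9e-18), Stat3 by 1.36 (edgeR adjusted p = 1.8e-20) and Plk2 by 2.16 (edgeR adjusted p = 5.6e-22) on the log2 scale, as the members were, while Smad3 (-1.75, edgeR adjusted p = 9.4e-17) and Map2k6 (-1.18, edgeR adjusted p = 1.5e-11) were lower.

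**Figure D5:**
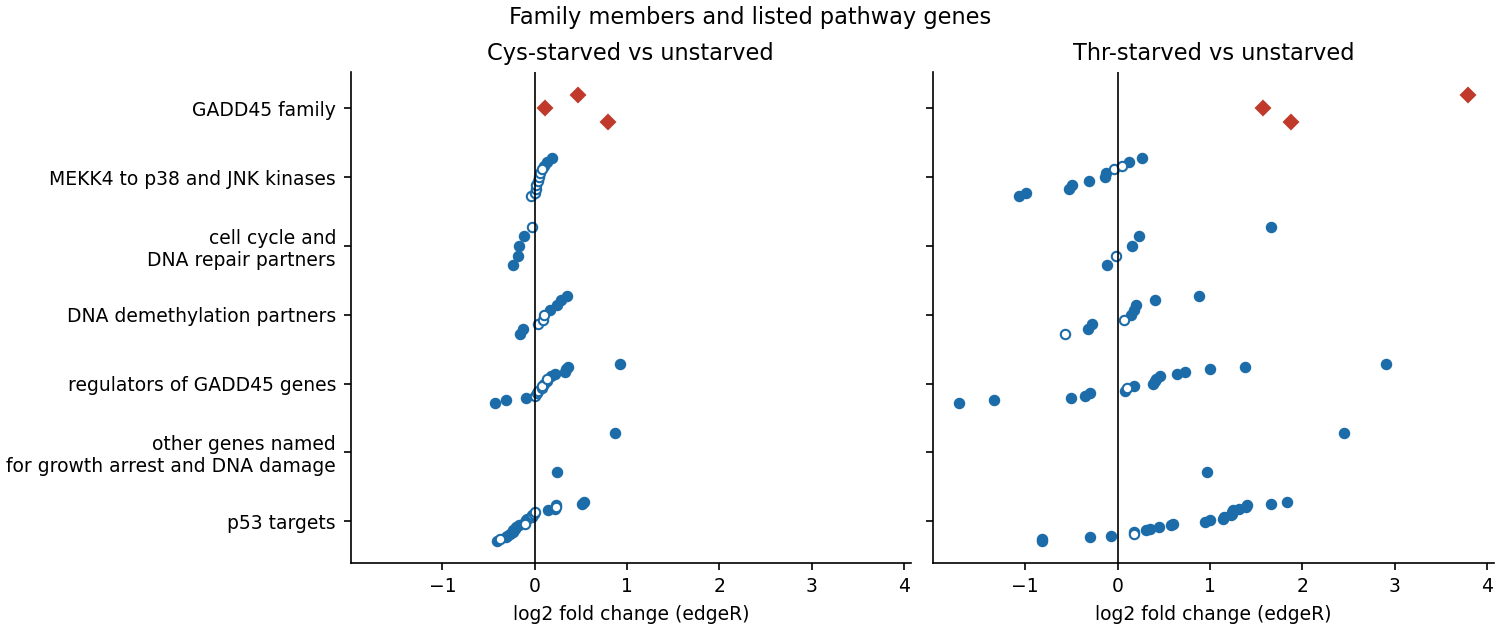
Log2 fold change (x axis) of the 3 members (red diamonds) and of the genes of each list (blue points, sorted within a list), in Cys-starved (left) and Thr-starved (right) against unstarved cells. Filled points have an adjusted p of 0.05 or less and open points do not, and the fill of the diamonds carries no test. In Thr-starved cells 19 of 24 p53 targets rose and 7 of 11 kinases fell, beside 31.1% of all genes higher and 31.9% lower. The lists were chosen with earlier results of these data known.

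The genes whose levels ran most closely with each member were ranked by Pearson's r of log2 CPM over the 9 libraries, among the 11410 genes that averaged 5 CPM or more. The points share their libraries and fall into 3 groups, so the values are descriptive and no p is given. Nearest to Gadd45a were Sesn2 (r = 0.9994), Ccn2 (0.9992), Pawr (0.999), Med20 (0.9983) and Gdf15 (0.9981). They show the stepwise pattern of Gadd45a, with levels 1.4 to 1.89 times the unstarved ones in Cys-starved and 2.34 to 4.69 times in Thr-starved cells. Nearest to Gadd45g were Klhl26 (r = 0.9992), Pmpca (0.9987), Dll1 (0.9986), Sde2 (0.9985) and Tlk2 (0.9983), with ratios of 1.03 to 1.32 in Cys-starved and 1.41 to 10.5 in Thr-starved cells. Of these Dll1, a Notch ligand, was at 1.38, 1.83 and 14.5 CPM in unstarved, Cys-starved and Thr-starved cells, so that it reached a mean of 5 CPM only through the Thr-starved libraries, whose Gadd45g values also chose the family. Nearest to Gadd45b were Gorab (r = 0.9973) and the predicted genes Gm4739 (0.9976), Gm13232 (0.9972), Gm13167 (0.997) and Gm13237 (0.9965), at 0.995 to 1.05 times the unstarved level with Cys and 1.49 to 1.94 times with Thr starvation. Gm13232 and Gm13167 had nearly the same levels in each group. Whether the predicted genes share sequence, and so reads, was not tested, and they may not be separate cases.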

How the data were processed

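Poly(A) RNA of 9 wild-type E14 samples was sequenced with a directional kit. The authors mapped reads to GRCm38 with STAR 2.7.4a and counted them per gene with HTSeq, per the labels and the submitters' processing notes, and deposited raw counts. The deposited signal table holds those counts divided by 1 size factor per library, made by the authors with DESeq2, and gave only the size factors of an alternative. Aligner and counter settings beyond this are not given in the sources used here.

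Counts were tested in R 4.3.3 with edgeR 4.0.16 (TMM, quasi-likelihood F test, all 9 libraries in 1 fit, genes with a total count of at least 1) and adjusted by Benjamini-Hochberg over all 20143 genes in each of 3 comparisons, at a threshold of 0.05. The SE of a log2 fold change was its size divided by the square root of F. Alternatives used DESeq2 1.42.0, other scaling, filters, thresholds, halved counts, the replicate block and each library left out in turn. The code was tested on simulated data. The members and gene lists were chosen with earlier results of these data known. Genes given with values were drawn, per list and comparison, from up to 3 called genes with the largest change. These had a mean of at least 5 CPM and no overlap between groups. Not every gene that met this rule is given, and some others are added for comparison. For each member, its 5 nearest genes by Pearson's r of log2(CPM + 0.5) are given. Annotation was GENCODE M21, in which 18 identifiers had no symbol. Similar sequence was searched with BLAST 2.17.0. No library was left out. Mapk10 and Trp63 had no row in the table. Low counts were mostly even (67.8% of 28226 values from 1 to 20), so counts may not be independent molecules. The chi-square per gene between libraries of a group was 1.98 to 2.13, with no pair standing apart, and how much of this comes from counting both ends of a fragment was not tested.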

Additional observations from a re-analysis of the deposited data

How the results depend on the processing

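Of 119 tested member values under 17 alternatives per comparison, 113 kept their direction and side of the threshold, and none turned direction. The 34 untested values of Gadd45g, in both comparisons with Thr-starved cells, come from the values that chose the family. All were above 0, and nothing is read from that. Gadd45g in Cys-starved against unstarved cells ranged from 0.33 to 0.67 on the log2 scale with 1 library left out, and was 0.47 (adjusted p = 0.052) with counts halved. Gadd45b there ranged from 0.01999 to 0.2393 with 1 library left out. With a log2 fold change of at least 1 required, 296 genes were called for Cys (241 higher, 55 lower), 2668 for Thr (1166 higher, 1502 lower) and 2303 between the starvations (746 higher, 1557 lower), against 7313, 12689 and 12488. With the deposited size factors the split was 2787 higher and 4786 lower for Cys, against 3523 and 3790, and 0 of 11 kinases were called for Cys, against 3. With the longest transcript as length, the shares of Gadd45a were 88.8%, 92.4% and 85.0% in unstarved, Cys-starved and Thr-starved cells, those of Gadd45g 2.16%, 1.79% and 7.87%, and those of Gadd45b 9.09%, 5.85% and 7.09%. The cause of these differences was not tested, apart from the lengths and the stricter rule themselves. Same-numbered libraries did not deviate together (r from -0.244 to 0.106 over 9 pairs), so the numbers were not taken to pair them. With the replicate block 7063, 12488 and 12334 genes were called, Gadd45g with Cys was at 0.47 (adjusted p = 0.019) and Gadd45b at 0.11 (adjusted p = 0.47), and no member call changed. Depth limits Gadd45g most, at 56 to 107 counts in the unstarved and Cys-starved libraries.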

Other observations

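Marker genes of other lineages were summed per library beside the family. The 5 neural markers in the table, led by Tubb3 (59.8 to 183 CPM), summed to 170 to 176 CPM in unstarved, 210 to 215 in Cys-starved and 89.8 to 92.3 in Thr-starved libraries. The 5 mesoderm markers summed to 6.49 to 8.4 CPM in unstarved, 6.09 to 6.92 in Cys-starved and 3.33 to 3.65 in Thr-starved libraries, and the 6 endoderm markers to 8.14 to 8.68, 10.1 to 11.9 and 7.43 to 8.03 CPM. The 5 fibroblast feeder markers summed to 13.5 to 13.7, 12.1 to 15 and 9.5 to 10.5 CPM. All 4 sums were thus lowest in the Thr-starved libraries, in which Gadd45a and Gadd45b were highest, and their part in the levels of the family was not tested. Gadd45g was chosen for its level there, and nothing is read from it. The neural sum was mostly Tubb3, and the mesoderm, endoderm and feeder sums were at most 15 CPM. Among pluripotency markers, Utf1 varied most over the libraries, from 93.2 to 314 CPM, against 746 to 858 CPM for Pou5f1.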
